A study of Mus musculus with 15 samples.

Results

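The data describe what changed in mouse mammary organoids between the start of a migration experiment and 72 h beside FGF10-soaked beads. The comparison used 6 of the 15 libraries of the series, namely the 3 labelled as migrated for 72 h with FGF10 (replicates 2, 3 and 4) and the 3 labelled 0 h (replicates 1, 2 and 4), compared over all expressed genes. All were labelled as wild-type mammary epithelial cells from mammary gland, grown as organoids in DMEM/F12 with L-Ala-Gln, ITS (an insulin, transferrin and selenium supplement) and antibiotics. The 0 h group received no bead label, and strain, age and the number of animals behind each library were not given in the sources used here. The remaining groups used for comparison were 3 libraries at 36 h with FGF10 and 3 at 72 h with beads soaked in bovine serum albumin (BSA), the protein control. The BSA libraries are numbered 2_1, 2_2 and 3, so the first pair may come from 1 culture and the BSA group may hold 2 independent samples rather than 3. The titles of the 72 h FGF10 libraries read FGF0, while their treatment label reads FGF10, and the treatment label was followed. The stated question of the series was whether an epithelial-mesenchymal transition (EMT) takes place while mammary epithelium migrates as a collective.

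Mammary epithelium is built of an outer basal layer, which is contractile and marked by keratins 5 and 14, and an inner luminal layer marked by keratins 8 and 18, part of which senses hormones and part of which can make milk. Fibroblast growth factor 10 is made by the stroma, binds the IIIb form of the receptor FGFR2 on epithelium together with heparan sulphate, and signals through the ERK pathway to induce ETV transcription factors and feedback inhibitors of the DUSP and SPRY families. In an EMT, factors of the SNAIL, ZEB and TWIST families lower cadherin 1 and other junction genes and raise cadherin 2, vimentin and fibronectin.

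The libraries held 11965322 to 24261233 assigned fragments at the start and 12438853 to 16582856 after 72 h with FGF10. Mitochondrial transcripts made up 2.16% to 2.59% of counts at the start and 3.90% to 4.55% after 72 h with FGF10, against 2.21% to 2.60% at 72 h with BSA. One 0 h library stood apart: replicate 1 had a summed level of the 40 mitosis genes of 2216 CPM (counts per fixed number of fragments after library size normalization), while the other two had 197 to 273. Results are therefore given with all 3 libraries at 0 h. They are given again without replicate 1 where that ended a call, or moved a count or fitted fold given here by more than 1.5 times. Genes named without a fitted difference from 0 h have no second value. The epithelial label fitted its markers, since Epcam, an epithelial adhesion molecule, lay at 1825 to 3919 CPM in these 6 libraries and Krt18 at 4662 to 14010 CPM. No label says that the replicates are separate cultures or animals, so p-values measure the spread between libraries.

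Between 0 h and 72 h with FGF10, 2507 of 18140 tested genes rose (13.8%) and 2910 fell (16%) at an adjusted p under 0.05 in edgeR's quasi-likelihood test, together 29.9% of genes. The median log2 difference over all tested genes was 0.011. Without 0 h replicate 1, 2656 of 18634 genes rose (14.3%) and 2731 fell (14.7%), and 2036 of the rises and 2478 of the falls were shared with the full fit, which is 81.2% and 85.2% of its calls. Against BSA at 72 h, 546 genes were higher with FGF10 (3.01%) and 541 lower (2.98%), and these counts depended on single libraries. Without 0 h replicate 1 they were 1073 (5.76%) and 784 (4.21%), and without FGF10 72 h replicate 4 they were 88 and 60. With libraries 2_1 and 2_2 summed to 1 sample they were 135 and 142, and 29 of the 51 described genes called against BSA kept the call, each of the 51 with its sign. The 22 that lost it, at adjusted p-values of 0.051 to 0.16, were Perp, Cnn1, Sbsn, Nectin2, Col17a1, Itgb4, Col4a2, Timp1, Msn, Fgfbp1, Dusp6, Etv5, Nkd1, Nkd2, Tgfb3, Fdps, Scd2, Car9, Fen1, Dut, Vwf and Foxi1. The gene lists that follow are read against these shares of all genes.

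**Figure D1:**
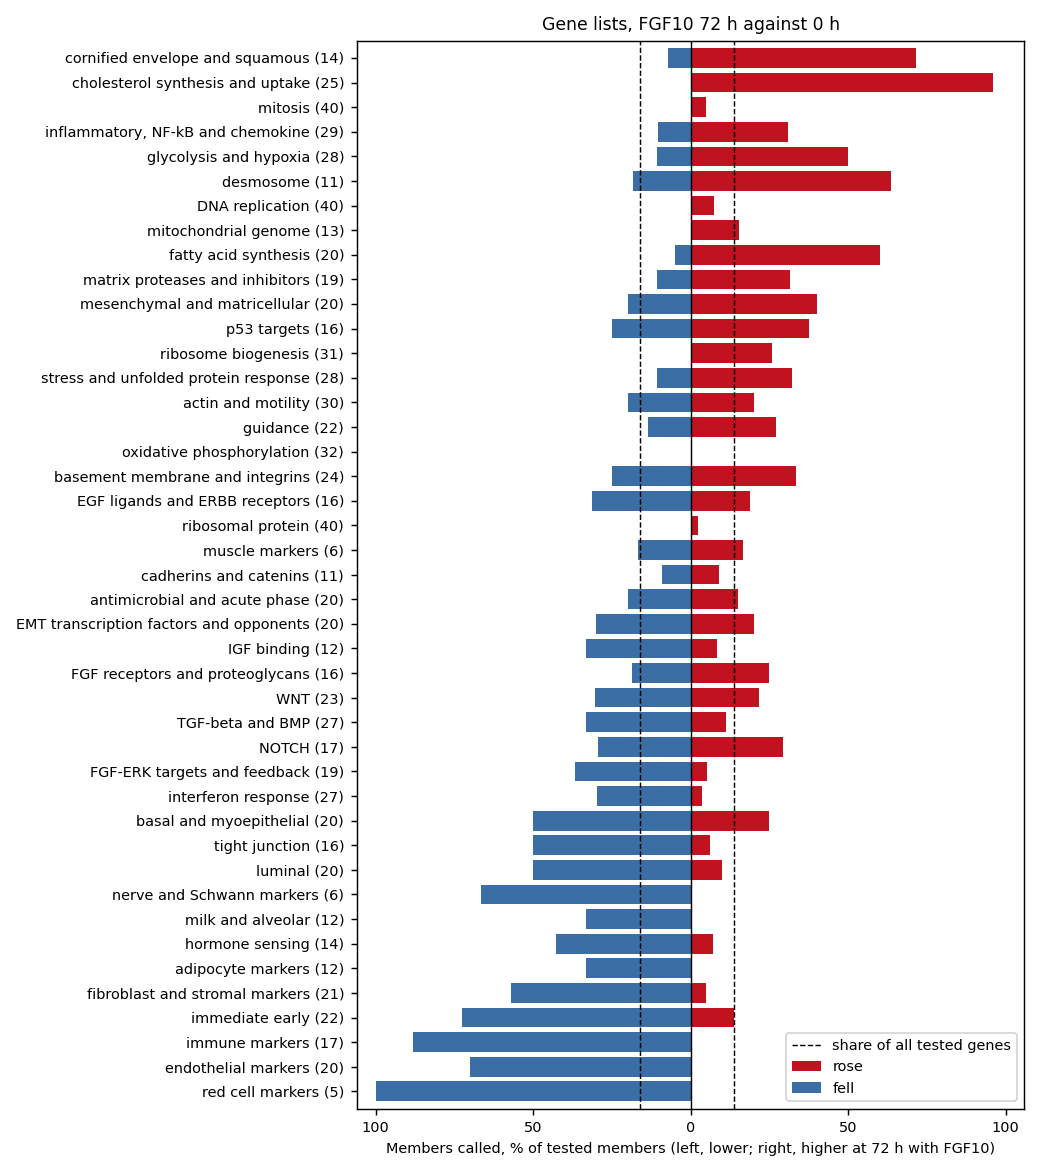
Share of tested members of each gene list (number tested in brackets) that were called higher (right, red) or lower (left, blue) at 72 h with FGF10 than at 0 h, ordered by median log2 difference, with dashed lines at the shares of all tested genes, 13.8% and 16%. Cholesterol synthesis and uptake has 24 of 25 members to the right, and immune markers have 15 of 17 to the left.

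The basal keratins rose and the contractile genes of the same layer fell. Krt14, a keratin of basal epithelial cells, lay at 615, 832 and 932 CPM in the 0 h libraries and at 11960, 10290 and 13620 CPM at 72 h with FGF10, a 15.1-fold difference (log2 3.92 ± 0.21 SE, adjusted p = 2.7e-08). Its partner Krt5 went from 361, 350 and 350 CPM to 3068, 2833 and 3230 CPM (log2 3.11 ± 0.16, adjusted p = 1.8e-08). No 0 h library came near any 72 h library for either keratin. Both stood above the BSA libraries of the same time, Krt14 by log2 1.71 (adjusted p = 0.00059) and Krt5 by 1.24 (adjusted p = 0.00061), and above FGF10 at 36 h, by 1.33 (adjusted p = 0.0027) and 0.73 (adjusted p = 0.018).

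Myh11, the smooth muscle myosin heavy chain of myoepithelial cells, moved the other way, from 300, 296 and 285 CPM to 45.0, 54.6 and 42.3 CPM (log2 -2.63 ± 0.19, adjusted p = 2.9e-07). Calponin, Cnn1, fell by 2.78 ± 0.29 (adjusted p = 6.7e-06) and smooth muscle actin, Acta2, by 1.38 ± 0.27 (adjusted p = 0.0014). Myh11 and Cnn1 were also below the BSA libraries, by log2 0.83 (log2 -0.83, adjusted p = 0.019) and 1.11 (log2 -1.11, adjusted p = 0.029), whereas for Acta2 the difference from BSA was 0.044 (adjusted p = 0.945). Trp63, the p63 factor that maintains basal identity, lay at 43.0 to 52.3 CPM at 0 h and 57.8 to 72.2 CPM at 72 h and did not pass the test (log2 0.41 ± 0.16, adjusted p = 0.064), although it did with limma voom (adjusted p = 0.028) and with only those groups fitted (adjusted p = 0.034). Among the 20 basal and myoepithelial genes tested, 5 rose and 10 fell, with a median of -0.56. In bulk RNA of this kind, fewer cells of a type and less RNA per cell cannot be told apart.

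**Figure D2:**
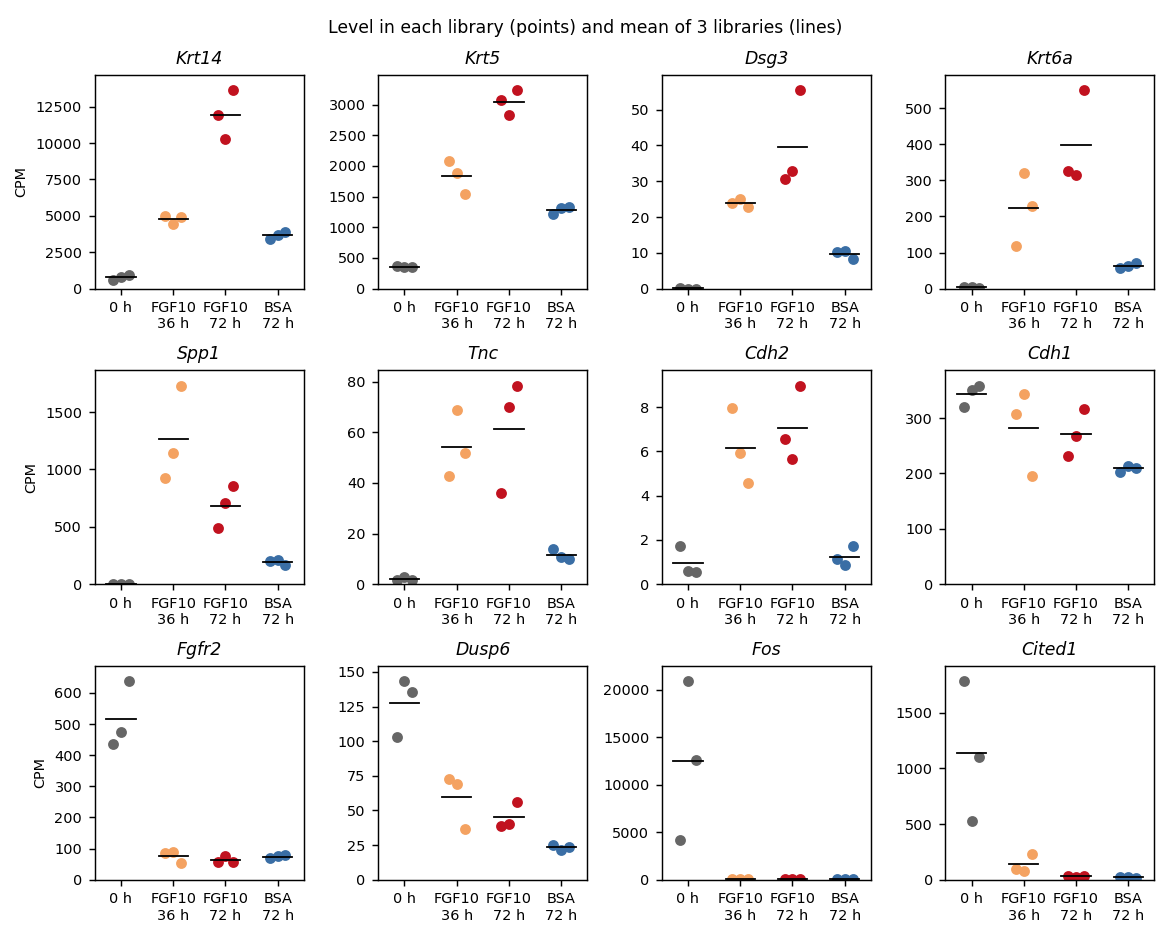
Level in CPM of 12 described genes in each library (points; 3 per group) with the group mean (line), for 0 h, FGF10 36 h, FGF10 72 h and BSA 72 h. Krt14 and Krt5 are highest at 72 h with FGF10 (10290 to 13620 and 2833 to 3230 CPM), and Fos and Fgfr2 are high at 0 h alone (4125 to 20850 and 437 to 637 CPM).

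Genes of stratified and wound-edge epidermis rose from very low levels. Krt6a, an inducible keratin of stressed and healing epidermis, lay at 3.93, 4.64 and 1.16 CPM at 0 h and at 327, 314 and 549 CPM at 72 h with FGF10 (log2 6.96 ± 0.57, adjusted p = 2.9e-06). Its partner Krt16 went from 1.14, 2.23 and 2.53 CPM to 70.5, 63.5 and 99.9 CPM (log2 5.35 ± 0.32, adjusted p = 8.6e-08). These keratins were above BSA at 72 h by 2.65 (adjusted p = 0.0082) and 2.56 (adjusted p = 0.00059) on the log2 scale. In the cornified envelope and squamous list, 14 of 21 members passed the expression filter. Of these 14, 10 rose and 1 fell, with a median of 5.08. The members Krtdap, Sprr1b and Casp14 had no count at 0 h. They passed the filter through later groups alone and could only rise, which adds to that count and median. Close keratin copies share reads, and fragments with several matches were not counted, so the levels of Krt6a, Krt6b, Krt14 and Krt16 are uncertain to that extent.

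Involucrin, Ivl, a scaffold protein of the cornified envelope, lay at 0.127, 1.55 and 0.110 CPM at the start and 87.4, 159 and 56.7 CPM at 72 h with FGF10 (log2 7.83 ± 1.31, adjusted p = 0.0010). The rise of Ivl did not pass with limma voom (adjusted p = 0.082), and it was 7.21 without 0 h replicate 1 and 9.64 without 0 h replicate 2. Its level was higher still with BSA at 72 h, at 305 and 317 CPM in libraries 2_1 and 2_2 and 544 CPM in replicate 3, a difference that did not pass the test (log2 -1.94, adjusted p = 0.21). Krtdap, a keratinocyte differentiation protein, had no count in any 0 h library and 24.4, 15 and 38.2 CPM at 72 h with FGF10, at least 471-fold higher when 3 counts over the 0 h group are taken as the floor. Sbsn, a secreted protein of differentiating epidermis, rose (log2 3.0 ± 0.27, adjusted p = 1.5e-06) and was lower than with BSA (log2 -0.85, adjusted p = 0.044). The differences from BSA thus ran in both directions within the list, with 4 of its 14 members higher with FGF10 and 2 lower.

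The promoters of Ivl and Krtdap are shown because both genes went from near or at no signal to levels well above it and because their windows carry the same pair of motifs. Each window runs from 250 bases before to 50 bases after the annotated start in RefSeq on the mouse build GRCm38.p6, chr3:92573686-92573985 on the minus strand for Ivl and chr7:30787655-30787954 on the plus strand for Krtdap. Capitals mark matches on either strand to the AP-1 letters TGANTCA and to the TATA box letters TATAAA.
Ivl: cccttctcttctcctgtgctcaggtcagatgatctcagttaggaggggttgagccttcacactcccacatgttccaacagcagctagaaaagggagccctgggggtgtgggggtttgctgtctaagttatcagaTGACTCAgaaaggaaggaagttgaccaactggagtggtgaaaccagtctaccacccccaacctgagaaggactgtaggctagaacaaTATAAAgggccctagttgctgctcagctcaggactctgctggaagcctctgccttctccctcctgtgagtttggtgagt
Krtdap: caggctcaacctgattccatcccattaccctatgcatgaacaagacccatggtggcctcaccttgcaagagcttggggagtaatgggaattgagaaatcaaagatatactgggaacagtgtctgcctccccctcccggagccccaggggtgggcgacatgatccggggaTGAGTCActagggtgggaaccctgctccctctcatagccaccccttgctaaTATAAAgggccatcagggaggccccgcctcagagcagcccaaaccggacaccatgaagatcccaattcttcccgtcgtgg
The AP-1 match began 116 bases before the start in Ivl and 81 before it in Krtdap, and the TATA box 29 and 30 before it. Of 27025 mouse genes with a window, 8.97% held the AP-1 letters and 15.7% the TATA box letters. Only 10 of the 14 list members tested had a window (71.4%), too few to give a share for the list. A match is a description of the letters and not evidence of binding.

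Desmosomes, the junctions that anchor keratin filaments between cells, gained RNA for several of their parts. Dsg3, the basal desmoglein, had 3 counts over the 0 h group (0.127, 0 and 0 CPM) and 30.7, 32.9 and 55.4 CPM at 72 h with FGF10, a count ratio of 705 with a 95% exact interval of 241 to 3421 that covers counting error only. Its fitted difference was log2 9.27 ± 0.43, and 12.33 without 0 h replicate 1, which held the 3 counts. Perp, a membrane protein of desmosomes, rose from 253, 246 and 264 CPM to 1279, 1297 and 1338 CPM (log2 2.36 ± 0.17, adjusted p = 2.9e-07). Dsc3 rose by log2 4.43 ± 0.36 (adjusted p = 6.7e-07; 5.19 without 0 h replicate 1) and Pkp1, a plakophilin, by 1.89 ± 0.15 (adjusted p = 6.9e-07). All 4 were higher than with BSA at 72 h, by log2 2.05 (adjusted p = 0.00061), 0.85 (adjusted p = 0.011), 1.91 (adjusted p = 0.0039) and 0.86 (adjusted p = 0.0056) in that order. Of 11 desmosome genes tested, 7 rose and 2 fell, with a median of 0.97, and 1 fell when 0 h replicate 4 or either of replicates 2 and 3 at 72 h with FGF10 was left out.

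Falls outnumbered rises among luminal and hormone-sensing genes, and about as many members did not pass. Cited1, a transcriptional co-regulator of hormone-sensing luminal cells, lay at 1781, 530 and 1103 CPM at 0 h and 34.5, 27.5 and 34.7 CPM at 72 h with FGF10 (log2 -5.14 ± 0.50, adjusted p = 1.1e-05). Foxa1, the pioneer factor of the oestrogen receptor, went from 546, 396 and 609 CPM to 93.0, 105 and 95.3 CPM (log2 -2.40 ± 0.29, adjusted p = 3.2e-05). Prlr, the prolactin receptor, fell by 2.92 ± 0.38 (adjusted p = 5.6e-05). The hormone-sensing list had 1 rise and 6 falls among 14 tested, with 7 that did not pass, and the luminal list 2 rises and 10 falls among 20, with 8 that did not pass. Elf3, an epithelial ETS factor in the luminal list, fell by 2.26 ± 0.18 (adjusted p = 6.6e-07) and lay below BSA as well (log2 -0.94, adjusted p = 0.0094). It was the 1 luminal member below BSA, with 1 above, and the hormone-sensing list had 0 below and 1 above. Without 0 h replicate 1 each list had 2 below. In the full fit Cited1 (log2 0.51, adjusted p = 0.52), Foxa1 (log2 -0.16, adjusted p = 0.78) and Prlr (log2 -1.09, adjusted p = 0.083) did not pass against BSA. Prlr passed without 0 h replicate 1 (adjusted p = 0.028).

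Of the luminal keratins, Krt18 fell by 1.27 ± 0.29 (adjusted p = 0.0043), while Krt8 lay at 3734 to 5884 CPM at 0 h and 3179 to 3850 CPM at 72 h and did not pass (log2 -0.44 ± 0.23, adjusted p = 0.16; 0.039 with limma voom). The secreted protein gene Wfdc18 rose from 2299, 1919 and 2560 CPM to 21610, 15270 and 16500 CPM (log2 2.98 ± 0.28, adjusted p = 3.1e-06). The 36 h libraries with FGF10 had 5236, 2903 and 6006 CPM, and the difference between 72 h and 36 h was log2 1.92 (adjusted p = 0.0027). Csn3, the kappa casein of milk, fell from 731, 3713 and 1224 CPM to 160, 92.8 and 58.4 CPM (log2 -4.19 ± 0.59, adjusted p = 0.00021; log2 -3.24 without 0 h replicate 2). It too changed after 36 h, when it still lay at 1244, 1228 and 1238 CPM (log2 -3.58 for 72 h against 36 h, adjusted p = 0.0079). The difference of Csn3 from BSA at 72 h did not pass (log2 0.31, adjusted p = 0.78). Milk and alveolar genes had no rise and 4 falls among 12 tested, and 2 rises and 5 falls without 0 h replicate 1.

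The classical EMT genes did not move as a block. Cdh1, the cadherin of epithelial junctions, lay at 320, 351 and 358 CPM at 0 h and 231, 268 and 317 CPM at 72 h with FGF10, and this lower level did not pass edgeR's test (log2 -0.33 ± 0.18, adjusted p = 0.18), while limma voom called it (log2 -0.41, adjusted p = 0.020). Cdh2, the mesenchymal cadherin, rose from 1.73, 0.581 and 0.550 CPM to 6.54, 5.66 and 8.96 CPM (log2 2.80 ± 0.45, adjusted p = 0.00031) and was higher than with BSA (log2 2.50, adjusted p = 0.0067). Without 0 h replicate 1 its rise was 3.63. Among the 11 cadherins, catenins and nectins tested 1 rose and 1 fell, with 2 falls without 0 h replicate 1, and the fall in the full fit was that of Nectin2, an adhesion molecule of adherens junctions (log2 -1.27 ± 0.12, adjusted p = 3.7e-06).

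EMT transcription factors and their opponents had 4 rises and 6 falls among 20 tested, and 3 falls without FGF10 72 h replicate 3 or replicate 4. Snai1, the SNAIL factor, rose at a low level from 0.0845, 0.194 and 0.165 CPM to 2.05, 2.03 and 1.10 CPM (log2 3.57 ± 0.72, adjusted p = 0.0018), and its difference from BSA was 0.49 (adjusted p = 0.65). Zeb2 fell from 6.25, 13.2 and 3.41 CPM to 0.577, 0.338 and 0.244 CPM (log2 -4.25 ± 0.57, adjusted p = 6.6e-05; log2 -3.62 without 0 h replicate 2), with 4.36 to 8.49 CPM in the BSA libraries at 72 h (log2 -3.95 against BSA, adjusted p = 0.0022). Zeb1 fell by 2.56 ± 0.84 (adjusted p = 0.034), a call that was lost without either of 0 h replicates 1 and 2 or either of FGF10 72 h replicates 3 and 4 (adjusted p 0.072 to 0.12) and with limma voom (adjusted p = 0.088). Snai2 (log2 0.26, adjusted p = 0.35) and Twist1 (log2 -0.76, adjusted p = 0.40) did not pass. For Snai2 the value was 0.52 (adjusted p = 0.051) without 0 h replicate 1, and limma voom called it higher (log2 0.43, adjusted p = 0.039). Grhl1, a grainyhead factor of epithelial identity, fell by 0.89 ± 0.13 (adjusted p = 0.00016). Zeb1, Zeb2 and vimentin are also expressed by stromal and endothelial cells. Markers of those cells, and of immune cells, summed higher at 0 h, and also at 72 h with BSA, than at 72 h with FGF10 (below). The part of any of these cells in the ZEB falls and in the difference of Zeb2 from BSA was not tested.

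Tight junction genes had 1 rise and 8 falls among 16 tested, with a median of -0.72. Claudin 3, Cldn3, lay at 1299, 1486 and 1438 CPM at 0 h and 630, 570 and 641 CPM at 72 h with FGF10 (log2 -1.20 ± 0.14, adjusted p = 2.3e-05). Claudin 8 fell by 2.55 ± 0.27 (Cldn8, adjusted p = 8.5e-06), Epcam fell by 0.86 ± 0.18 (adjusted p = 0.0027), and claudin 1 was the riser (Cldn1, log2 1.97 ± 0.31, adjusted p = 0.00038). None of the 16 differed from BSA at 72 h at an adjusted p under 0.05 in edgeR's test, where 0 had an unadjusted p under 0.05, and DESeq2 and limma voom called 0.

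Matricellular and cell surface genes linked to migration rose beside falls of other members of the same list. Spp1, osteopontin, a secreted ligand of integrins and CD44, lay at 0.760, 0.290 and 0.165 CPM at 0 h and at 488, 704 and 858 CPM at 72 h with FGF10 (log2 10.56 ± 0.45, adjusted p = 5.1e-09; 11.60 without 0 h replicate 1). It was higher still at 36 h, with 924, 1143 and 1728 CPM, a difference from 72 h that did not pass (log2 -0.89, adjusted p = 0.13). The BSA libraries at 72 h had 199, 210 and 169 CPM, below FGF10 by log2 1.83 (adjusted p = 0.0038).

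Tnc, tenascin C, a glycoprotein of remodelled matrix, went from 1.69, 2.90 and 1.76 CPM to 36.1, 69.9 and 78.3 CPM (log2 4.91 ± 0.38, adjusted p = 1.0e-06; log2 2.41 above BSA, adjusted p = 0.0022). Pdpn, podoplanin, a glycoprotein of cell protrusions, rose by 1.03 ± 0.23 (adjusted p = 0.0039), and as it was lower with BSA at 72 h than at 0 h (log2 -1.14, not tested) its difference from BSA was 2.16 (adjusted p = 0.00059). Cd44 rose by 2.28 ± 0.21 (adjusted p = 2.1e-06) and Fn1, fibronectin, by 2.04 ± 0.38 (adjusted p = 0.0015). Both had levels with BSA near those with FGF10, with differences of -0.04 (adjusted p = 0.94) and -0.38 (adjusted p = 0.57). Vim, vimentin, lay at 51.9 to 102 CPM at 0 h and 111 to 114 CPM at 72 h and did not pass (log2 0.49 ± 0.38, adjusted p = 0.36). Ccn1, a matricellular target of YAP and serum response factor, fell from 372, 866 and 900 CPM to 62.2, 64.9 and 77.5 CPM (log2 -3.38 ± 0.27, adjusted p = 6.8e-07). In all, 8 of the 20 members tested rose and 4 fell.

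Among basement membrane and integrin genes, 8 of 24 rose and 6 fell. The rises included the hemidesmosome pair Col17a1 (log2 1.69 ± 0.16, adjusted p = 3.2e-06) and Itgb4 (1.26 ± 0.15, adjusted p = 1.9e-05), which link keratin to the basement membrane. Col18a1 went from 32.5, 21.8 and 18.1 CPM to 83.5, 95 and 129 CPM (log2 2.08 ± 0.24, adjusted p = 2.0e-05) and was the furthest of the 3 from BSA (log2 1.87, adjusted p = 0.0011). Collagen IV moved the other way, with Col4a2 down by 2.54 ± 0.31 (log2 -2.54, adjusted p = 3.4e-05).

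Proteases and their inhibitors had 6 rises and 2 falls among 19. Serpinb5, maspin, rose from 193, 160 and 191 CPM to 545, 491 and 587 CPM (log2 1.58 ± 0.14, adjusted p = 1.4e-06). Timp1, an inhibitor of metalloproteinases, rose by 1.92 ± 0.26 (adjusted p = 7.6e-05) and stood lower at 72 h than at 36 h (log2 -1.10, adjusted p = 0.033). Serpinb2, an inhibitor of plasminogen activators, had no count at 0 h and 3.34, 0.760 and 0.914 CPM at 72 h, at least 30.2-fold higher. The BSA group had 1 count of it, a count ratio of 93.2 (95% exact interval 16.2 to 3731). Of the 30 actin and motility genes, 6 rose and 6 fell, not far from the 13.8% and 16% of all tested genes. There were 3 rises without 0 h replicate 2. Msn, moesin, rose by 1.31 ± 0.18 (adjusted p = 9.6e-05) and Tpm4, a tropomyosin, by 0.95 ± 0.15 (adjusted p = 0.00023), and both were above BSA (log2 0.75, adjusted p = 0.027, and 0.78, adjusted p = 0.0095). Cttn, cortactin, fell by 0.86 ± 0.12 (adjusted p = 0.00011).

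Fgfr2, the receptor for FGF10, fell, and proteins that assist FGF binding moved in both directions. Fgfr2 lay at 437, 475 and 637 CPM at 0 h and 56.3, 75.1 and 57.6 CPM at 72 h with FGF10 (log2 -3.04 ± 0.21, adjusted p = 1.9e-07). The libraries with BSA had 70.2, 75.2 and 77.7 CPM, and the difference between FGF10 and BSA was -0.24 (adjusted p = 0.50). Counts were taken per gene and do not separate the IIIb from the IIIc form. Sdc1, syndecan 1, a heparan sulphate co-receptor, rose from 166, 130 and 136 CPM to 395, 478 and 698 CPM (log2 1.87 ± 0.19, adjusted p = 4.8e-06) and stayed above BSA (log2 1.55, adjusted p = 0.00061). Fgfbp1, which releases FGFs from the matrix, rose from 2.11, 4.84 and 3.52 CPM to 53.6, 74.5 and 121 CPM (log2 4.62 ± 0.37, adjusted p = 1.5e-06; log2 1.49 above BSA, adjusted p = 0.018). Sdc2, syndecan 2, another heparan sulphate proteoglycan, fell from 92.4, 91.0 and 94.1 CPM to 63.8, 59.7 and 56.6 CPM (log2 -0.62 ± 0.10, adjusted p = 0.00020). Of 16 receptors and proteoglycans, 4 rose and 3 fell, and without 0 h replicate 1 there were 4 and 6.

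Most targets and feedback inhibitors of ERK fell or did not pass against 0 h, and some stood above BSA. Dusp6, a phosphatase of ERK, went from 103, 143 and 135 CPM to 38.6, 40.0 and 56.4 CPM (log2 -1.50 ± 0.23, adjusted p = 0.00019), while the BSA libraries had 24.8, 21.6 and 23.6 CPM (log2 0.95 for FGF10 against BSA, adjusted p = 0.026). Etv4, an ETS factor induced by FGF, lay at 7.56, 4.36 and 7.15 CPM at 0 h, 5, 7.52 and 9.75 CPM at 72 h with FGF10 and 1.23, 1.71 and 0.981 CPM with BSA. Its difference from 0 h did not pass (log2 0.21 ± 0.31, adjusted p = 0.66), and that from BSA did (log2 2.50, adjusted p = 0.0019). Etv5 had the same pattern, with -0.03 from 0 h (adjusted p = 0.94) and 1.14 from BSA (adjusted p = 0.038). Spry1 fell by 1.33 ± 0.19 (adjusted p = 0.00014), Spry4 by 1.00 ± 0.28 (adjusted p = 0.013), and Spry2 did not pass (log2 0.07, adjusted p = 0.93). The fall of Spry4 was lost without 0 h replicate 1 (adjusted p = 0.055) and without FGF10 72 h replicate 2 (adjusted p = 0.065). Over the list, 1 of 19 members rose and 7 fell, with no rise when any of 0 h replicates 1 and 4 or the FGF10 72 h libraries was left out, and 3 were higher than with BSA and none lower.

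The immediate early genes, which switch on within minutes of a stimulus or of tissue handling, were the group with the steepest falls among the signalling lists. Fos lay at 4125, 20850 and 12630 CPM at 0 h and at 55.0, 46.9 and 62.5 CPM at 72 h with FGF10 (log2 -7.84 ± 0.53, adjusted p = 2.2e-07). Jun went from 1903, 5620 and 3890 CPM to 76.0, 85.1 and 90.5 CPM (log2 -5.50 ± 0.34, adjusted p = 6.9e-08), and Ier2 fell by 4.35 ± 0.31 (adjusted p = 2.2e-07). Fosb had 71.3, 286 and 160 CPM at 0 h against 0.321, 0.169 and 0 CPM at 72 h (log2 -10.00 ± 0.68, adjusted p = 6.6e-07; log2 -11.09 without FGF10 72 h replicate 2 and -9.36 without replicate 4). Replicate 1 was the lowest of the 0 h libraries for each of these 4 genes. In the list 16 of 22 members fell and 3 rose, with a median of -3.42, and none differed between FGF10 and BSA at 72 h at an adjusted p under 0.05 in edgeR's test. At an unadjusted p under 0.05 there were 2 such genes, and limma voom called 2 and DESeq2 0. Egr1, counted in the ERK list as well, fell by 4.38 ± 0.45 (adjusted p = 1.1e-05).

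Other signalling lists held both rises and falls. In the WNT list 5 of 23 members rose and 7 fell. Nkd2, an inhibitor of WNT signalling, rose from 10.5, 4.45 and 8.69 CPM to 129, 146 and 208 CPM (log2 4.32 ± 0.32, adjusted p = 5.9e-07), and its relative Nkd1 fell by 2.24 ± 0.32 (adjusted p = 0.00013). These relatives also parted against BSA, with Nkd2 higher by 1.30 (adjusted p = 0.018) and Nkd1 lower (log2 -1.39, adjusted p = 0.023). The receptors Erbb2 and Erbb3 of the EGF family fell by 1.20 ± 0.15 (adjusted p = 3.8e-05) and 1.11 ± 0.17 (adjusted p = 0.00024). In the TGF-beta and BMP list 3 of 27 rose and 9 fell, against 13.8% and 16% of all tested genes. Among the falls were the transducer Smad3 (log2 -1.36 ± 0.18, adjusted p = 5.5e-05) and the ligand Tgfb3 (log2 -1.13 ± 0.15, adjusted p = 6.2e-05).

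Genes of cholesterol synthesis and uptake rose nearly throughout. In this pathway acetyl-CoA is turned by a chain of enzymes into sterols, and the genes are known targets of the SREBP2 factor, which acts with NF-Y at CCAAT boxes. Of 25 members tested 24 rose and none fell, with a median of 1.96, and the exception was Srebf2, the gene of SREBP2 itself, named here after its value was seen (log2 0.48 ± 0.22, adjusted p = 0.12). Msmo1, a sterol methyl oxidase, went from 32.1, 28.6 and 34.0 CPM to 163, 174 and 205 CPM (log2 2.52 ± 0.14, adjusted p = 4.6e-08). Cyp51, a sterol demethylase, rose by 2.63 ± 0.21 (adjusted p = 6.6e-07) and Fdps, a prenyl diphosphate synthase, by 2.89 ± 0.23 (adjusted p = 6.9e-07).

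The median of the same 25 genes was 1.89 at 36 h with FGF10 and 1.06 at 72 h with BSA, both as untested differences from 0 h. None passed between 36 h and 72 h with FGF10 at an adjusted p under 0.05 in edgeR's test, 4 had an unadjusted p under 0.05, and limma voom called 1 and DESeq2 0. At 72 h 15 of the 25 were higher with FGF10 than with BSA and none lower, Msmo1 by 0.75 (adjusted p = 0.0082) and Cyp51 by 1.20 (adjusted p = 0.0050). Without 0 h replicate 1 the counts against 0 h and against BSA were again 24 and 15.

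**Figure D3:**
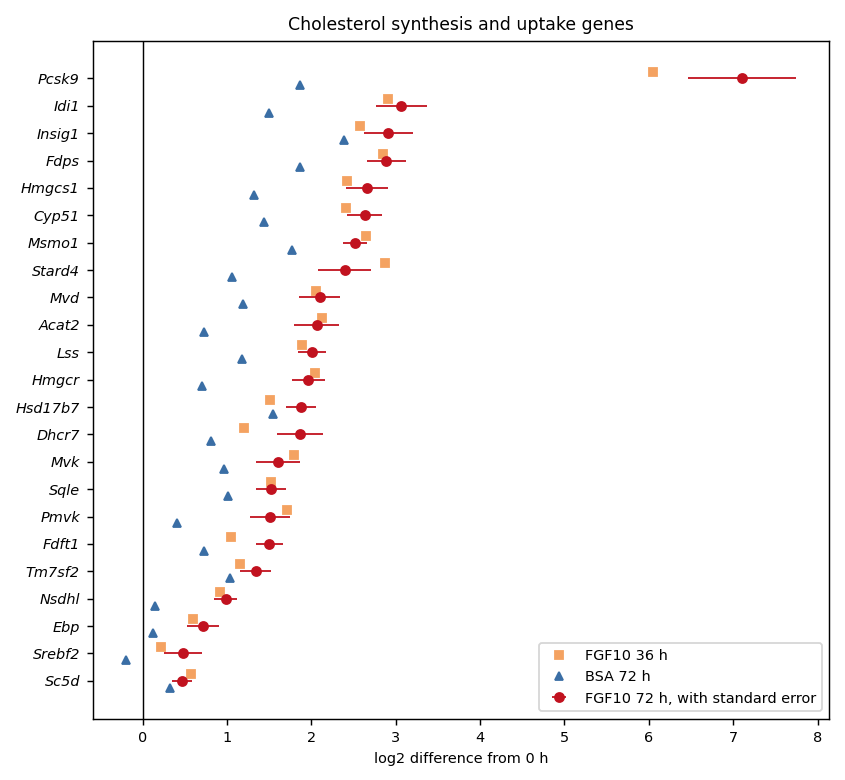
Log2 difference from 0 h of 23 of the 25 cholesterol synthesis and uptake genes at 72 h with FGF10 (red circles, bars show the standard error), 36 h with FGF10 (orange squares) and 72 h with BSA (blue triangles). All red points lie right of 0, and each of the 23 BSA points lies left of its red one.

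The promoters of Msmo1 and Cyp51 are shown as members that rose together, with CCAAT boxes in capitals on either strand (CCAAT or, read backwards, ATTGG). The windows are those of RefSeq on GRCm38.p6, chr8:64733529-64733828 for Msmo1 and chr5:4104648-4104947 for Cyp51, both on the minus strand.
Msmo1: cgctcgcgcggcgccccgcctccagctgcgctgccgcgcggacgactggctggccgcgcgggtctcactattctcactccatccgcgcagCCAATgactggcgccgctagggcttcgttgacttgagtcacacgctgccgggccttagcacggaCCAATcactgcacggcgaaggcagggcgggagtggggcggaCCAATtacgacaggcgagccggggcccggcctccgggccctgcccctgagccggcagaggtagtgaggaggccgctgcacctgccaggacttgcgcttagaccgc
Cyp51: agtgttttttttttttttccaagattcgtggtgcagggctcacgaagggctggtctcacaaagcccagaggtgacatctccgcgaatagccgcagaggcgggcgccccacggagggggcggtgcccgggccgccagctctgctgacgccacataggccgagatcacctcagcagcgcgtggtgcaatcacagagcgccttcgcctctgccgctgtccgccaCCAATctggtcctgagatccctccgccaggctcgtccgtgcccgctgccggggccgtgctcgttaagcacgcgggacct
Msmo1 had 3 CCAAT boxes, which began 160, 96 and 55 bases before the start, and Cyp51 had 1, which began 29 before it. The same letters stood in 41.1% of the 27025 genes with a window. A window was found for 17 of the 25 list members (68.0%), too few to give a share for the list.

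Some genes of fatty acid synthesis and glycolysis rose as well. Scd1, a stearoyl-CoA desaturase, lay at 21.6, 43.5 and 48.3 CPM at 0 h and 654, 609 and 700 CPM at 72 h with FGF10 (log2 4.12 ± 0.25, adjusted p = 6.9e-08). Scd2 rose by 3.95 ± 0.24 (adjusted p = 6.5e-08) and Fasn, the fatty acid synthase, by 1.64 ± 0.16 (adjusted p = 3.8e-06). Of 20 fatty acid genes 12 rose and 1 fell, and 5 were higher than with BSA. Among 28 glycolysis and hypoxia genes 14 rose and 3 fell. Ldha, lactate dehydrogenase, went from 976, 981 and 749 CPM to 4119, 3747 and 3131 CPM (log2 2.02 ± 0.24, adjusted p = 2.1e-05), Pkm, pyruvate kinase, rose by 2.01 ± 0.21 (adjusted p = 5.6e-06), and Car9, a carbonic anhydrase induced by low oxygen, by 2.96 ± 0.28 (adjusted p = 2.6e-06). Here BSA stood above FGF10 more often than below it, with 7 of the 28 lower and 2 higher with FGF10, and the untested median from 0 h was 1.62 with BSA against 1.02 with FGF10.

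The nuclear genes of oxidative phosphorylation showed no call among 32 tested, with 0 in either direction in edgeR's test, 3 at an unadjusted p under 0.05, 1 called by DESeq2 and 2 by limma voom. Of the 13 mitochondrially encoded genes 2 rose, and 1 when any library other than FGF10 72 h replicate 4 was left out. mt-Nd2, a subunit of complex I, went from 609, 784 and 748 CPM to 1971, 1704 and 1600 CPM (log2 1.30 ± 0.32, adjusted p = 0.0070). The summed level of the 13 was 18180 to 22700 CPM at the start and 32010 to 39190 CPM after 72 h with FGF10, against 17070 to 20260 CPM with BSA.

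For proliferation genes the call depended on 0 h replicate 1 and on the test. Mki67, the Ki-67 protein of cycling cells, lay at 49.1, 4.45 and 2.92 CPM in 0 h replicates 1, 2 and 4 and at 55.9, 44.7 and 76.8 CPM at 72 h with FGF10. With all 3 libraries at 0 h the rise was log2 1.62 ± 0.77 (adjusted p = 0.14), and without replicate 1 it was 4.04 (adjusted p = 4.1e-07). Cyclin A2, Ccna2, lay at 68.8, 5.81 and 2.31 CPM at 0 h and 105, 99.3 and 157 CPM at 72 h, with 2.20 (adjusted p = 0.078) and 4.96 (adjusted p = 1.3e-06) in these fits. Cenpa, the histone of centromeres, gave 1.62 (adjusted p = 0.085) and 3.45 (adjusted p = 1.6e-07). With all 3 libraries at 0 h, limma voom with sample weights called Mki67 (log2 3.17, adjusted p = 0.0014), Ccna2 (log2 4.13, adjusted p = 0.00066) and Cenpa (log2 2.76, adjusted p = 0.00062), and DESeq2 called Ccna2 (adjusted p = 0.033) and Cenpa (adjusted p = 0.048).

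Over the mitosis list, 2 of 40 genes rose with all libraries and 39 without 0 h replicate 1, and the median went from 1.59 to 4.01. Over the DNA replication list the counts were 3 and 40 of 40, and the medians 0.84 and 1.83. With all libraries, limma voom called 39 mitosis and 37 replication genes higher, DESeq2 called 5 and 5, and edgeR fitted to only those groups called none. The voom fit used sample weights, so 0 h replicate 1 need not have counted fully in it. The rises with all libraries were those of Mad2l1, a spindle checkpoint gene (log2 2.02 ± 0.49, adjusted p = 0.0088), and Anln, anillin of the cleavage furrow (1.83 ± 0.54, adjusted p = 0.023), and, for replication, Orc1 (2.19 ± 0.68, adjusted p = 0.027), Fen1 (1.14 ± 0.37, adjusted p = 0.028) and Dut (1.12 ± 0.37, adjusted p = 0.036). Without 0 h replicate 1 these were 3.30 for Mad2l1, 3.15 for Anln, 5.36 for Orc1, 1.75 for Fen1 and 1.91 for Dut. Leaving out another library instead gave 0 to 1 rises in the replication list, and 1 in the mitosis list without 0 h replicate 2 or FGF10 72 h replicate 4. Against BSA at 72 h the mitosis list had 1 member higher in the full fit and 39 when 0 h replicate 1 was left out of the shared spread, although that library enters neither group.

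The summed level shows the same in each library. The mitosis list summed to 2216, 273 and 197 CPM at 0 h, to 2194 to 3263 CPM at 72 h with FGF10, to 2952 to 3702 CPM at 36 h with FGF10 and to 925 to 993 CPM at 72 h with BSA. Replicate 1 at 0 h thus reached the lowest of the 72 h FGF10 libraries, and the other two lay below every later library.

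**Figure D4:**
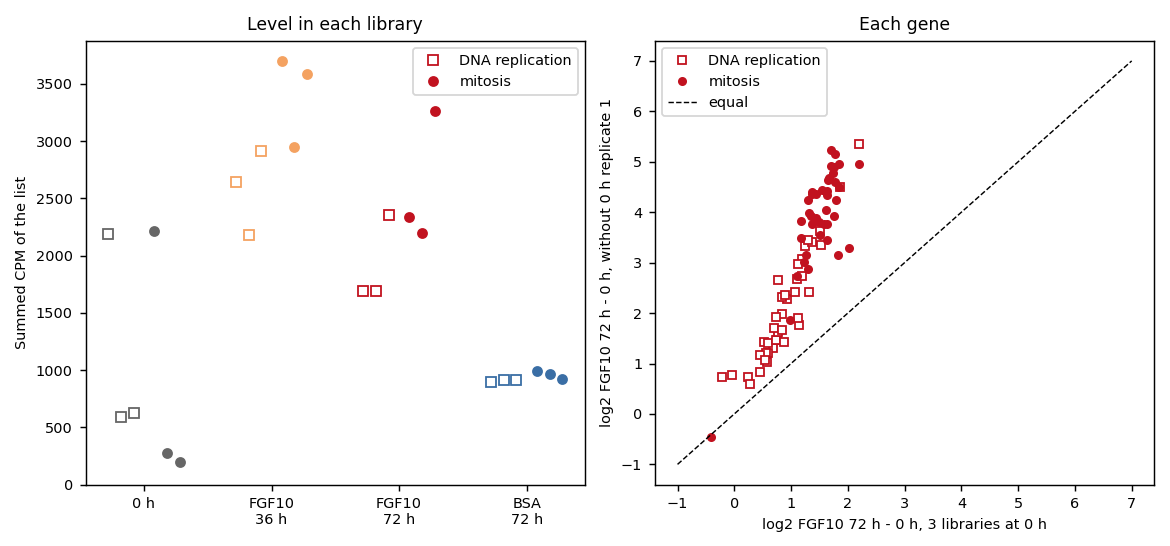
Left, summed CPM of the 40 DNA replication genes (open squares) and 40 mitosis genes (filled circles) in each library. Right, log2 difference of each gene between FGF10 72 h and 0 h with 3 libraries at 0 h (x axis) and without 0 h replicate 1 (y axis), with the line of equality. The mitosis sum at 0 h is 2216 CPM in replicate 1 and 197 to 273 CPM in the others, and nearly all genes lie above the line.

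Promoters of Mki67 and Cenpa are shown as examples of cell cycle genes, with capitals for the cell cycle homology region (CHR), TTTGAA, and for CCAAT boxes on either strand. Both elements are known from genes that peak in the G2 and M phases. The windows lie at chr7:135716330-135716629 on the minus strand for Mki67 and at chr5:30666636-30666935 on the plus strand for Cenpa, in RefSeq on GRCm38.p6.
Mki67: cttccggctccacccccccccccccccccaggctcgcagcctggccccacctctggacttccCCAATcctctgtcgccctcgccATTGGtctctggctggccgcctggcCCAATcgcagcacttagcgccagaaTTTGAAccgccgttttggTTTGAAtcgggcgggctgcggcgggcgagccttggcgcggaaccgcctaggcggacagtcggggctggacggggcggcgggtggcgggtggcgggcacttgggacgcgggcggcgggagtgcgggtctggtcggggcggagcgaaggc
Cenpa: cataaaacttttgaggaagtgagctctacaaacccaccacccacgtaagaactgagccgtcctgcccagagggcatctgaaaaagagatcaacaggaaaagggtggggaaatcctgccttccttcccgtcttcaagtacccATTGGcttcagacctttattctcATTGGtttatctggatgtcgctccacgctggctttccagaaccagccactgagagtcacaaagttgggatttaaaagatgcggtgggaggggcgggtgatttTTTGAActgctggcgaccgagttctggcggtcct
Mki67 held 2 CHR matches and 3 CCAAT boxes, and Cenpa held 1 CHR match, which began 17 bases after the start, and 2 CCAAT boxes. A window was found for 33 of the 40 mitosis genes, of which 24 held the CHR letters (72.7%) and 24 a CCAAT box (72.7%). Among 11818 tested genes with a window the shares were 15% and 42.7%. Among 33 DNA replication genes with a window 4 held the CHR letters (12.1%) and 19 a CCAAT box (57.6%).

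Growth and stress genes changed in part. In ribosome biogenesis 8 of 31 genes rose and none fell, and 3 rose without FGF10 72 h replicate 4, with Npm1, nucleophosmin, at log2 0.76 ± 0.16 (adjusted p = 0.0023). Ribosomal protein genes had 1 rise among 40. In the stress list 9 of 28 rose and 3 fell, against 13.8% and 16% of all tested genes. It had 5 rises without 0 h replicate 4 and 6 falls without 0 h replicate 1. Nqo1, a target of the oxidant-sensing factor NRF2, rose from 27.6, 54.3 and 49.1 CPM to 475, 438 and 359 CPM (log2 3.28 ± 0.21, adjusted p = 1.1e-07). Hmox1, haem oxygenase, rose from 18.9, 17.4 and 10.6 CPM to 68.6, 78.6 and 45.0 CPM (log2 2.03 ± 0.30, adjusted p = 0.00020), below the 234, 245 and 270 CPM with BSA (log2 -1.97, adjusted p = 0.0033).

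Inflammatory and chemokine genes included both gains and losses, 9 rises and 3 falls among 29, against 13.8% and 16% of all tested genes. There was 1 fall when FGF10 72 h replicate 2 or replicate 4 was left out. Ptgs2, the inducible cyclooxygenase, rose from 0.338, 1.26 and 0.165 CPM to 22.7, 28.6 and 26.9 CPM (log2 5.73 ± 0.85, adjusted p = 0.00039; 6.60 without 0 h replicate 2). Ccl20, which attracts CCR6-bearing immune cells, had no count at 0 h and 3.53, 4.31 and 8.89 CPM at 72 h, at least 100-fold higher. Il24, a cytokine of the IL-10 family, had none at 0 h and 1.48, 2.53 and 2.68 CPM at 72 h, at least 38.5-fold higher. Il24 also exceeded BSA, where it had 4 counts over the group (log2 4.78, adjusted p = 0.0098). The differences of Ptgs2 (log2 -0.59, adjusted p = 0.60) and Ccl20 (log2 0.16, adjusted p = 0.92) from BSA did not pass. Over the list 3 members were above BSA and 5 below. Cxcl14, a chemokine of resting epithelium, fell from 214, 694 and 494 CPM to 28.2, 32.4 and 18.4 CPM (log2 -4.15 ± 0.54, adjusted p = 0.00013). Interferon response genes had 1 rise and 8 falls among 27, with 3 rises without FGF10 72 h replicate 3 and none without replicate 4. Among the falls was Psmb9, an immunoproteasome subunit (log2 -1.39 ± 0.13, adjusted p = 2.6e-06).

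Markers of immune, endothelial, stromal and red cells were present at 0 h, and most of them fell. The 17 immune markers summed to 2118 to 2758 CPM at the start and 104 to 177 CPM after 72 h with FGF10, and 15 of them fell. Cd74, the invariant chain of antigen-presenting cells, lay at 996, 1279 and 1368 CPM at 0 h and 8.66, 8.36 and 9.32 CPM at 72 h (log2 -7.11 ± 0.32, adjusted p = 5.1e-09), and was also below BSA (log2 -1.39, adjusted p = 0.0084) and below FGF10 at 36 h (log2 -1.90, adjusted p = 0.0021). The macrophage receptor Csf1r went from 12.3, 16.4 and 12.1 CPM to 0.898, 0.760 and 1.04 CPM (log2 -3.90 ± 0.31, adjusted p = 5.9e-07).

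Endothelial markers summed to 306 to 848 CPM at 0 h and 54.4 to 80.4 CPM at 72 h, with 14 of 20 lower, and Vwf, von Willebrand factor, fell by 4.77 ± 0.53 (adjusted p = 3.4e-05). Fibroblast and stromal markers summed to 616 to 1150 CPM and 312 to 603 CPM, with 12 of 21 lower and 1 higher, and 6 lower without FGF10 72 h replicate 4. Dcn, decorin, fell by 3.62 ± 0.55 (adjusted p = 0.00044), and without 0 h replicate 1 the difference was log2 -2.89. Of 8 red cell markers 5 passed the expression filter, and all 5 fell, from sums of 43.3 to 133 CPM to 1.54 to 1.86 CPM. Hbb-bs, a globin, had no count at 72 h with FGF10 (at least 357-fold lower). Its fitted difference was log2 -11.46, and -10.34 without 0 h replicate 1. As Hbb-bs had 0 to 3 counts in each later group, it passed the filter through the 0 h libraries alone and could only fall. None of these other-cell sums at 0 h overlapped those at 72 h with FGF10. At 72 h with BSA the immune, endothelial and stromal sums were 461 to 550, 175 to 390 and 810 to 1008 CPM. These lay above the sums with FGF10, while the red cell sums with BSA overlapped those with FGF10. The 12 adipocyte markers tested summed to 286 to 812 CPM at 0 h. At 72 h they summed to 107.5 to 193 CPM with FGF10 and 641 to 658 CPM with BSA. Of these 12, 4 were lower with FGF10 than at 0 h and 5 lower than with BSA, and none was higher in either comparison. The part of these cells in the falls of other genes, and in differences from BSA, was not tested.

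**Figure D5:**
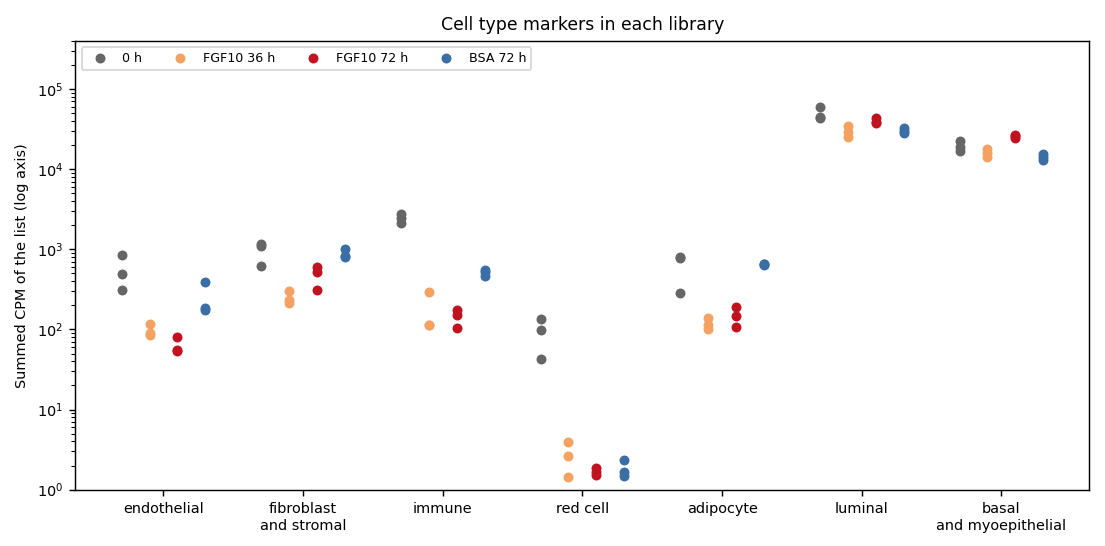
Summed CPM (log axis) of marker lists in each library, coloured by group, 3 points per group. Immune markers fall from 2118 to 2758 CPM at 0 h to 104 to 177 CPM after 72 h with FGF10, while the basal and myoepithelial list lies at 16690 to 22250 CPM and 24550 to 26310 CPM.

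The 12 largest rises among called protein-coding genes whose higher group averaged 5 CPM or more were Tmem213, Krtdap, Prl2c3, Spp1, Ccl20, Atp6v0a4, Dsg3, Cxcl5, Gpx2, Ifi202b, Klk1 and Ivl. Tmem213 had no count at 0 h and 63.6, 38.9 and 47.1 CPM at 72 h (at least 883-fold higher), and 78.7, 84.7 and 46.2 CPM with BSA. Atp6v0a4, a subunit of the vacuolar proton pump found in acid-secreting cells, went from 0.211, 0 and 0.055 CPM to 73.4, 73.0 and 78.8 CPM (log2 9.28 ± 0.50, adjusted p = 6.5e-08; 10.78 without 0 h replicate 1). Gpx2, a glutathione peroxidase of epithelia, went from 4.86, 1.26 and 1.32 CPM to 755, 629 and 624 CPM (log2 7.99 ± 0.62, adjusted p = 1.7e-06; 9.0 without 0 h replicate 1). With limma voom the rises of Prl2c3, Ccl20, Cxcl5, Klk1 and Ivl did not pass (adjusted p 0.053 to 0.23), nor did that of Prl2c3 with only those groups fitted (adjusted p = 0.068). Of the 12, Spp1, Dsg3 and Ifi202b were above BSA at an adjusted p under 0.05, and none was below it.

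Among the 12 largest falls were those of Hbb-bs, Sbp, Dcpp3, Cytl1, Fosb, Fam90a1a, Npy1r, Il1b, H2-M9, Inmt and Selp. Sbp, a secreted protein gene, went from 107, 34.5 and 102 CPM to 1 count over the 3 libraries at 72 h, a count ratio of 3985 (95% exact interval 715 to 157500, counting error only). Il1b, interleukin 1 beta, went from 5.20, 20.2 and 22.5 CPM to 1 count over the group. The falls of Il1b and of H2-M9 did not pass when any of the FGF10 72 h libraries was left out (adjusted p 0.064 to 0.085 and 0.053 to 0.063). The falls of H2-M9 and Cytl1 did not pass with limma voom (adjusted p = 0.15 and 0.18), nor did that of Npy1r with only those groups fitted (adjusted p = 0.076). None of the 12 passed against BSA or against FGF10 at 36 h at an adjusted p under 0.05 in edgeR's test, where 1 and 0 had an unadjusted p under 0.05 and DESeq2 called 2 and 0 and limma voom 0 and 0. That test could show no fall from BSA for Hbb-bs and Sbp, which had 0 counts with BSA. Inmt, Dcpp3, Fam90a1a, Il1b and Fosb had 1 to 6 counts with BSA, which left little room to show a fall. At 36 h with FGF10, Sbp, Fam90a1a and Inmt had 0 counts, and Hbb-bs, Dcpp3, Cytl1 and Npy1r had 1 to 4. For these genes the lack of a call says little. Selp had 1 count against 131 with BSA (count ratio 107, 95% exact interval 18.8 to 4249, counting error only). H2-M9 had 1 against 81 (66.0, 11.5 to 2639).

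Relative to 36 h with FGF10, 257 genes were higher at 72 h (1.42%) and 89 lower (0.491%), against 13.8% and 16% relative to 0 h, and the comparisons share the 72 h libraries. Without 0 h replicate 1 these counts were 298 (1.6%) and 136 (0.73%), and without FGF10 72 h replicate 2 they were 78 and 21. Of the described genes, Krt14, Krt5, Perp, Dsc3, Sbsn, Wfdc18, Nkd2, Atp6v0a4 and Tmem213 were among the higher ones. Csn3, Cited1, Cd74, Timp1 and Psmb9 were among the lower ones, Cited1 at 96.5, 80.9 and 234 CPM at 36 h (log2 -2.09, adjusted p = 0.031). The FGF10 36 h library of replicate 4 had 1.11% mitochondrial counts, below the 3.60% to 3.97% of the others of its group.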

How the data were processed

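RNA of 15 mouse mammary organoid libraries in 5 groups of 3 was sequenced as stranded mRNA libraries, per the labels' protocols. The values used are deposited raw counts of fragments per gene, made by the authors with featureCounts 2.0.1 over exons without regard to strand and without multi-mapped fragments, per the file headers. The submitters' processing notes also name cutadapt 1.9.1, HISAT2 2.2.1, HTSeq and GRCm39. Because counting ignored strand, a gene and an antisense partner cannot be told apart.

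All 15 libraries entered 1 edgeR 4.0.16 fit in R 4.3.3 (TMM scaling, filterByExpr with a minimum count of 10 and a total of 15, robust quasi-likelihood test), which kept 18140 of 54456 genes and had 10 residual degrees of freedom. P-values were adjusted by Benjamini-Hochberg over all tested genes and called under 0.05. Each standard error was obtained by dividing the size of the log2 value by the root of its F statistic. A group without counts was given a floor of 3 counts over the group. In simulated counts for FGF10 72 h against 0 h with 17599 genes, 50 of 50 genes raised 4-fold and 18 of 50 raised 2-fold were called, as were 49 of 50 lowered 4-fold, 17 of 50 lowered 2-fold and 5 of 17399 unchanged genes. The simulation gave every gene the same spread and changed far fewer genes than were called in the data. Its shares are therefore not the power of the test in the data.

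Genes named are the 12 largest rises and falls among called protein-coding genes whose higher group averaged 5 CPM or more and whose libraries did not overlap, up to 4 genes with the smallest p of each of 43 gene lists, and a panel of 25. The lists and the comparison were chosen with earlier results of these data known. Alternatives were other scaling, filters, tests (DESeq2 1.42.0, limma 3.58.1 voom with sample weights), a replicate block, fewer groups and leaving out each library. Some genes that meet these rules are not reported here.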

Additional observations from a re-analysis of the deposited data

Results flagged for a closer look

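The change from 0 h to 72 h differed between FGF10 and BSA for the following described genes, which is the same as their difference at 72 h because both changes start from the same 0 h libraries. Each passed edgeR's test at an adjusted p under 0.05. Their log2 difference, FGF10 minus BSA, was for Krt14 1.71, Krt5 1.24, Krt6a 2.65, Krt16 2.56, Krt6b 2.95, Dsg3 2.05, Perp 0.85, Dsc3 1.91, Pkp1 0.86. Further values above 0 were Cdh2 2.50, Spp1 1.83, Tnc 2.41, Pdpn 2.16, Col17a1 0.62, Itgb4 0.52, Col18a1 1.87, Serpinb5 0.80, Timp1 1.11. To these were added Serpinb2 6.02, Msn 0.75, Tpm4 0.78, Sdc1 1.55, Fgfbp1 1.49, Dusp6 0.95, Etv4 2.50, Etv5 1.14, Nkd2 1.30. The remaining values above 0 were Msmo1 0.75, Cyp51 1.20, Fdps 1.02, Scd2 0.88, Car9 1.16, Fen1 1.41, Dut 1.60, Il24 4.78, Ifi202b 2.50. Values below 0, lower with FGF10, were Myh11 -0.83, Cnn1 -1.11, Sbsn -0.85, Elf3 -0.94, Nectin2 -0.46, Zeb2 -3.95, Col4a2 -1.17. Below 0 as well were Nkd1 -1.39, Tgfb3 -0.55, Hmox1 -1.97, Cd74 -1.39, Csf1r -1.51, Vwf -1.85. The genes chosen after their values were seen gave Foxi1 -1.12, Atp6v1b1 -1.61. The value of Serpinb2 rests on 1 count in the BSA group and is no bound, and that of Il24 rests on 4 counts. With BSA libraries 2_1 and 2_2 summed to 1 sample, 29 of these 51 genes kept the call. The 22 that lost it are named under Results.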

How the results depend on the processing

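The counts of genes higher and lower at 72 h with FGF10 than at 0 h stayed within 1.5 times of 2507 and 2910 under the 14 alternatives run, at 1809 to 2656 and 2143 to 2731 when each library was left out. Counts against BSA at 72 h depended on the setting, with 2559 higher and 2466 lower when only those groups were fitted, 135 and 142 with BSA libraries 2_1 and 2_2 summed, 2541 and 2283 with limma voom, 962 and 1015 with the DESeq2 Wald test, and 88 to 1073 and 60 to 784 without single libraries. Against FGF10 at 36 h they were 121 and 40 with only those groups, 479 and 395 with voom, 462 and 317 with DESeq2, 135 lower without a filter, 58 lower with the BSA libraries summed, and 78 to 298 and 21 to 136 without single libraries. The cause was not tested.

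The replicate block gave 2919 higher and 3075 lower against 0 h, 535 and 550 against BSA and 453 and 218 against 36 h. Replicate numbers are shared by 2 pairs, whose deviations correlated at 0.124 and 0.0172, within the -0.17 to 0.136 of pairs with different numbers. These values cannot tell whether libraries of the same number share an animal or a culture, which the labels do not give. No called gene changed sign. Among uncalled genes that did, Etv4 ranged from -0.037 to 0.43 without single libraries, negative without FGF10 72 h replicate 4. Etv5 was 0.23 with the replicate block, 0.19 with voom and -0.25 to 0.48 without single libraries, and Spry2 was -0.11 with the replicate block and -0.16 to 0.18 without single libraries. Leaving out the DESeq2 values with no adjusted p, 16 of 111 described genes lost the call under at least 1 alternative, and 7 genes without a call gained one. The replicate block called Trp63 (log2 0.48, adjusted p = 0.0082), Snai2 (0.44, 0.014), Mki67 (2.71, 0.033), Ccna2 (3.61, 0.012) and Cenpa (2.49, 0.025) higher, with 34 mitosis and 30 replication genes, and limma voom called these 5 genes as well as Krt8 and Cdh1. With 3 libraries a group, a gene that did not pass may still differ. Most 2-fold changes in the simulated counts were not called, though their equal spread and few changed genes are unlike the data.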

Other observations

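Some genes of acid-secreting epithelial cells were followed because Tmem213 and Atp6v0a4 were among the largest rises, and these further genes were chosen after their values were seen. Car12, a membrane carbonic anhydrase, lay at 4.73, 4.55 and 4.46 CPM at 0 h and at 99.5, 87.3 and 126 CPM at 72 h with FGF10 (log2 4.51 ± 0.33, adjusted p = 5.7e-07 in edgeR's test). Foxi1, the factor that specifies proton-pumping cells in several epithelia, lay at 45.7, 72.2 and 49.1 CPM at 0 h and 73.8, 77.4 and 50.1 CPM at 72 h and did not pass (log2 0.27, adjusted p = 0.40). Atp6v1b1, another proton pump subunit of such cells, did not pass either (log2 0.36, adjusted p = 0.35). Both Foxi1 and Atp6v1b1 stood below the BSA libraries of the same time (log2 -1.12, adjusted p = 0.013, and log2 -1.61, adjusted p = 0.0070), while the differences from BSA of Atp6v0a4 (log2 -0.41, adjusted p = 0.41) and Tmem213 (log2 -0.49, adjusted p = 0.63) did not pass.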
